A study of Mus musculus with 5 samples.

Results

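JunB and H3K27ac peaks were examined around 10 mouse genes that encode ligands of the TGF-beta, activin and BMP family or an inhibitor of them: Tgfb1, Tgfb2, Tgfb3, Gdf15, Mstn, Inhba, Fst, Bmp2, Bmp4 and Bmp6. The genes were taken as a list, out of 21938 protein-coding genes, and each peak within 50 kb of a transcription start site (TSS) of any transcript of a listed gene was kept, with a split at 3 kb. The merged JunB peaks gave 23 regions near these genes, of 19101 JunB regions in all. The study mapped JunB, a subunit of the AP-1 transcription factor, in muscle stem cells (MuSCs) by CUT&RUN-seq, in which an antibody directs a nuclease to the bound chromatin of permeabilised cells. JunB was profiled in 3 libraries from young and 1 from aged mice, and 1 more library profiled H3K27ac, the acetylation of histone H3 that accompanies active regulatory elements. The peak names inside the list of young replicate 1 carry the tag gfp and those of the others do not. The methods sort MuSCs of control and JunB knockout mice by GFP and those of young and aged mice by surface markers, so means over the 3 young libraries may span different mice or sorts. The labels give no strain, genotype, treatment or age in months for these libraries and no age group for the H3K27ac library. The design text of the series names mice treated with DMSO or MVC, whereas the titles and group labels name Young and Aged, and the latter were used. With 1 aged library, age and library cannot be told apart, and no test between ages was made.

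Ligands of this family are secreted dimers that bring together type I and type II receptor kinases, which then phosphorylate SMAD proteins that enter the nucleus. TGF-beta, activin and myostatin signal through one SMAD branch and BMPs through another. In muscle, TGF-beta, activin and myostatin are known to restrain myogenic differentiation and growth, BMPs support the growth of the progenitor pool, and follistatin binds activin and myostatin and blocks them. AP-1 dimers recognise the heptamer TGACTCA, which reads TGAGTCA on the opposite strand.

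The sequences at the summits of JunB regions that the results turn on are given here from the reference mouse genome (GRCm38.p6, equal to mm10), plus strand, 5′ to 3′, with an AP-1 heptamer or a CCAAT box in capitals where one was found. Those at Tgfb3, Gdf15 and Bmp4 lay within 3 kb of a TSS, and the last 3 were taken from regions with a peak in all 4 JunB libraries. They stand for chr12:86079303-86079403, chr8:70634028-70634128, chr8:70630057-70630157, chr14:46387476-46387576, chr12:86091766-86091866, chr13:38410594-38410791 and chr1:186731344-186731444, in this order.
Tgfb3 promoter, aged: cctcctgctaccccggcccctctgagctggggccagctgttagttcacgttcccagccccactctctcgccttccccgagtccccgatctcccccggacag
Gdf15 upstream, young 1: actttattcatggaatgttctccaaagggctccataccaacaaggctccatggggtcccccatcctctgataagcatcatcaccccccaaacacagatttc
Gdf15 coding exon, aged: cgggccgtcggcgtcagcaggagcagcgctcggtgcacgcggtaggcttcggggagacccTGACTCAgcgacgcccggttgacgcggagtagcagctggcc
Bmp4 inner start site, aged: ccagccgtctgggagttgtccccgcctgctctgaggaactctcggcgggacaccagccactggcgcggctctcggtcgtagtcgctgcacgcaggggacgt
Tgfb3 upstream in Ift43, aged: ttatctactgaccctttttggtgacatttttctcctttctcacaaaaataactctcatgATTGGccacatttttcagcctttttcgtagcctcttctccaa
Bmp6 intron, young 2: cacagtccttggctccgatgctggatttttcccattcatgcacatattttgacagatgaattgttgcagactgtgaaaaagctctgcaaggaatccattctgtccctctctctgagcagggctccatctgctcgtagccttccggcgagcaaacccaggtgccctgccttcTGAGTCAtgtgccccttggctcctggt
Tgfb2 upstream repeat, young 1: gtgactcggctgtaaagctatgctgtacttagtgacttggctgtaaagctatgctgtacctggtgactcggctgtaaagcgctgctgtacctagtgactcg

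The deposited lists held 9534, 4884 and 3863 JunB peaks in young replicates 1, 2 and 3, 14123 in the aged library and 39865 H3K27ac peaks. The lists had not passed the same threshold: their weakest peaks had a −log10 p of 3.01 for young replicate 1 and the aged library alike, of 5.33 and 5.22 for young replicates 2 and 3, and of 3.96 for H3K27ac. The read depth behind a peak is not in the lists. Of 9 MuSC marker genes, 6 had an H3K27ac peak within 3 kb of a TSS (Myod1, Cdh15, Vcam1, Itga7, Chodl and Sdc4), and Pax7, Myf5 and Calcr had none. Of all protein-coding genes, 49.8% had one. Other markers with one were 2 of 4 endothelial genes (Pecam1 and Tek), 0 of 5 immune genes, 3 of 5 genes of fibro-adipogenic progenitors (Dcn, Dpt and Cd34) and 1 of 4 myofibre genes (Myh1), and their part in the results below was not tested.

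H3K27ac peaks lay at the start sites of 8 of the 10 ligand genes, and JunB peaks of at least 1 library at those of 5 (Tgfb2, Tgfb3, Gdf15, Bmp4 and Bmp6), where 25.8% of all genes had one. An H3K27ac peak lay within 3 kb of a TSS of 8 of 10 ligand genes, all but Fst and Bmp2, against 49.8% of all protein-coding genes. JunB peaks lay that close to Gdf15 and Bmp6 in young replicate 1 (2 of 10, against 11.0% of all genes), to none in young replicate 2 (0 of 10, against 7.74%) and to Gdf15 in young replicate 3 (1 of 10, against 5.91%). In the aged library they lay at Tgfb2, Tgfb3, Gdf15 and Bmp4 (4 of 10, against 23.9%), a count that fell to 2 at a −log10 p common to the 4 lists and to 0 with equal numbers of peaks. The young mean was 1.0 ± 1.0 genes (SD, n = 3). The genes with an aged and no young peak within 3 kb were Tgfb2, Tgfb3 and Bmp4, 3 of 10, where 13.1% of all genes had this pattern. Of the 5 markers of fibro-adipogenic progenitors, Pdgfra and Cd34 had it too, with aged −log10 p of 6.02 and 3.94. Aged JunB peaks lay at 3 of these 5 against 1 of 5 in each young library. Of the 9 MuSC markers, Vcam1 and Itga7 also had it, with aged −log10 p of 6.27 and 5.93. Aged JunB peaks lay at 5 of these 9, against 2, 3 and 1 in young replicates 1, 2 and 3. No endothelial, immune or myofibre marker had the pattern. The part of these cell types in the result was not tested. None of the 10 ligand genes had a peak of all 4 JunB libraries within 3 kb, against 4.36% of all genes. The aged list is the longest of the JunB lists and reached lower −log10 p than those of young replicates 2 and 3.

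**Figure D1:**
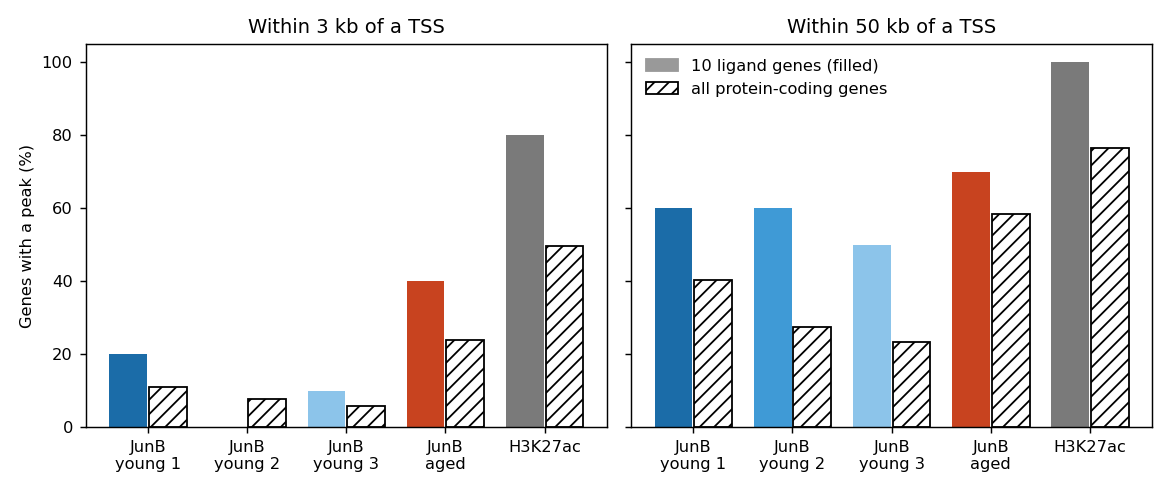
Share of genes (percent, y axis) with a peak within 3 kb (left) or 50 kb (right) of a TSS in each library, for the 10 ligand genes (filled bars) and for all 21938 protein-coding genes (hatched bars). Within 3 kb the H3K27ac library marked 8 of 10 ligand genes and the JunB libraries 0 to 4 of 10.

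Within 50 kb, JunB peaks of young replicates 1, 2 and 3 lay near 6, 6 and 5 of the 10 genes, against 40.4%, 27.5% and 23.4% of all protein-coding genes. The aged library had peaks near 7 of 10, the genes of young replicate 1 plus Inhba, against 58.4%. H3K27ac peaks lay near 10 of 10, against 76.6%. A peak within 50 kb can lie nearer another gene. A ligand gene had the nearest protein-coding TSS for 15 of the 23 JunB regions, and for 1 of the 5 found in all 4 libraries. The start sites of Tgfb2 and Bmp6 span 56.0 and 49.3 kb, so wider stretches were searched there. Mstn, Fst and Bmp2 had no JunB peak of any library within 50 kb, 3 of 10 against 35.5% of all genes. Their nearest JunB peaks, all of the aged library, were 70593, 74822 and 52962 bp from a TSS.

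**Figure D2:**
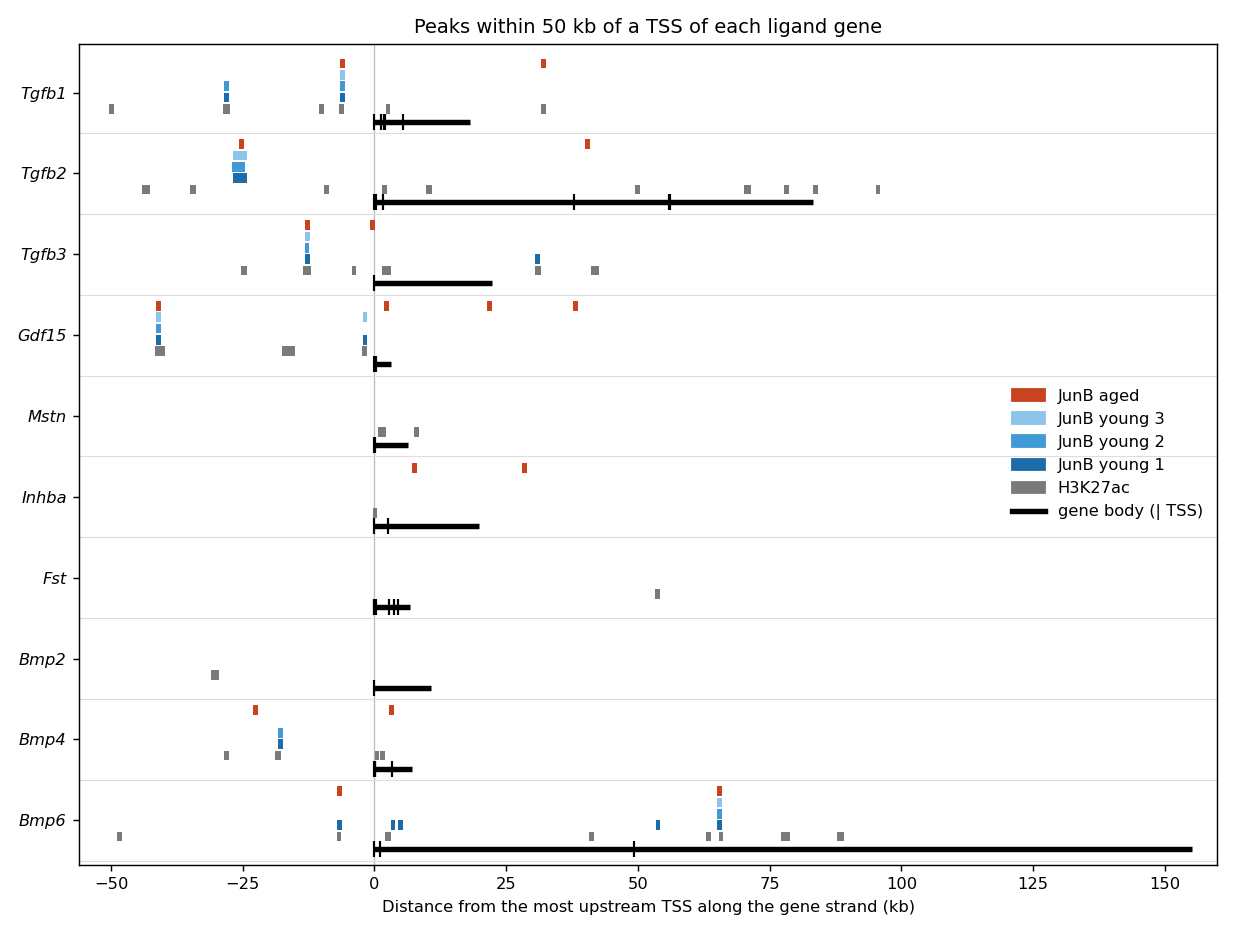
Peaks within 50 kb of a TSS of each ligand gene, by distance in kb from its most upstream TSS along the gene strand (x axis), with 1 lane per library (colour) above the gene body (black line, ticks at each TSS). Narrow peaks are drawn wider than to scale so that they can be seen. Mstn, Fst and Bmp2 show H3K27ac peaks alone, and stacks of 4 JunB lanes stand near Tgfb1, Tgfb2, Tgfb3, Gdf15 and Bmp6.

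Among the TGF-beta isoforms, Tgfb1, the main isoform stored in platelets, had 3 JunB regions and none within 3 kb. Each of the 3 lay at the start site of a neighbouring gene and overlapped an H3K27ac peak. The strongest was at chr7:25680712-25681102, 5900 bp upstream of Tgfb1 and across the TSS of B9d2, a ciliary transition zone gene. Its fold enrichment, which compares the signal at the summit with that expected locally in the same library, was 13.1, 10.6 and 13.3 in young replicates 1, 2 and 3 (12.3 ± 1.51, SD, n = 3) and 10.1 in the aged library. The aged value was below each young value, yet by −log10 p it ranked 425 of 14123 aged peaks. Expressed as a percentile, the share of the peaks of its own library with a lower −log10 p, which is higher the more weak peaks a list holds, the region stood at 92.2, 73.0 and 83.0 in young mice and at 97.0 in the aged library. The summits of the 4 libraries lay within 118 bp.

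The other Tgfb1 regions were weaker and each was missing from some libraries. One at chr7:25658718-25659031, 27971 bp upstream and at the start of Bckdha, a subunit of the branched-chain ketoacid dehydrogenase, had a fold of 4.57 in young replicate 1 and 7.30 in young replicate 2, and no peak in young replicate 3 or the aged library. The remaining region, chr7:25718905-25719149 at a start site of Ccdc97, was an aged peak with a fold of 4.44 at percentile 30.9. H3K27ac folds at the 3 regions were 5.75, 5.13 and 7.22, while the single H3K27ac peak within 3 kb of a Tgfb1 TSS had a fold of 3.50.

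Tgfb2, an isoform with roles in heart and mesenchyme development, had 2 JunB regions, neither of which overlapped H3K27ac. The closer one, chr1:186665333-186665693 in a Tgfb2 intron, was an aged peak of fold 3.99 at percentile 15.7. It counts as within 3 kb because a TSS of a non-coding Tgfb2 transcript lies 2462 bp away, whereas the nearest protein-coding TSS is 40007 bp away.

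The second Tgfb2 region, chr1:186730209-186733008, lay 24220 bp upstream in an intron of Rrp15 and was present in all 4 JunB libraries. Its fold was 6.13, 4.92 and 5.76 in the young libraries (5.60 ± 0.622, SD, n = 3) and 6.34 in the aged library, and its percentile was 95.4, 83.6, 87.1 and 89.7. The young peaks there were 2726, 2454 and 2650 bp wide and the aged peak 690 bp, with −log10 p of 50.3, 33.1, 31.1 and 15.5, so the aged peak was narrower than each young one although its fold was the highest. The merged region was 2800 bp wide, and 0.104% of the 1926 regions that all 4 libraries shared near protein-coding genes were at least as wide, with a median width of 622 bp. The reference sequence there is a tandem repeat: 90.0% of it is soft-masked, 91.4% of its bases equal the base 31 bp further on, and it holds 73 copies of TGACTCG (either strand). No exact AP-1 heptamer was found in it. The nearest H3K27ac peak was 6884 bp away. How much of the JunB peak comes from repeat reads was not tested.

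Tgfb3, the remaining isoform, is known for its part in palate fusion. It had the JunB region closest to a protein-coding TSS of any of the ligand genes. That region, chr12:86079118-86079850, began 77 bp upstream of the Tgfb3 TSS, in an intron of Gm48008, a non-coding gene on the opposite strand. It was an aged peak with a fold of 5.37 and a −log10 p of 8.38, at percentile 64.4 and rank 5012, and no young library had a peak there. The window around its summit was 68.3% G and C, with no AP-1 heptamer. A protein-coding TSS of Ift43 also lay within 3 kb. No H3K27ac peak overlapped it, and the nearest was 1589 bp away on the gene body side.

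Upstream of Tgfb3, a region at chr12:86091342-86092214 was shared by all 4 JunB libraries. It lay 12301 bp from the Tgfb3 TSS and across the TSS of a non-coding transcript of Ift43, an intraflagellar transport gene. Its fold was 7.77, 9.34 and 12.3 in the young libraries (9.82 ± 2.31, SD, n = 3) and 6.57 in the aged library, below each young value. Its percentile was 73.5, 64.4 and 79.7 in young mice and 82.2 in the aged library, above each of them, so fold and percentile ordered the libraries differently. It overlapped an H3K27ac peak of fold 3.68. A further region, chr12:86047972-86048220, 30821 bp downstream in an intron of Ttll5, was a weak peak of young replicate 1 (fold 3.74, percentile 9.28) inside an H3K27ac peak of fold 4.66, and its summit lay 5 bp from an AP-1 heptamer.

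Gdf15, a stress-induced member of the family that signals through the GFRAL receptor of the hindbrain, had 5 JunB regions, 2 of them within 3 kb. The upstream one, chr8:70633968-70634538, began 1512 bp from the TSS. It had a peak in young replicate 1 (fold 4.57, percentile 30.1) and young replicate 3 (fold 6.42, percentile 15.9), none in young replicate 2 or the aged library, and overlapped an H3K27ac peak of fold 3.24. The downstream one, chr8:70629991-70630235, lay in the coding sequence of Gdf15, 1860 bp from the TSS, and was an aged peak with a fold of 3.65 at percentile 14.5. It held the heptamer TGACTCA 13 bp from its summit and did not overlap H3K27ac. Young and aged peaks near the Gdf15 TSS were thus at different positions, and all 3 were in the lower part of their lists. Of JunB regions within 3 kb of any protein-coding gene, 61.7% were seen in a single library. How often young and aged peaks near the same TSS lie apart was not counted over all genes, so the Gdf15 positions are a description alone.

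The strongest region near Gdf15 was at chr8:70673149-70673688, 40693 bp upstream and across the TSS of Lsm4, which encodes an RNA-processing protein. The fold was 11.1, 11.6 and 12.1 in the young libraries (11.6 ± 0.50, SD, n = 3) and 13.2 in the aged library, where it ranked 168 of 14123. The aged value was above each young value, and the percentile was 88.4, 78.7 and 77.6 in young mice and 98.8 in the aged library. The region overlapped an H3K27ac peak of fold 4.72. Gdf15 shares its 50 kb surroundings with 5 other protein-coding genes, and 2 further aged peaks there, at the start of Isyna1 (fold 4.67, percentile 35.6) and near Ssbp4 (fold 6.44, percentile 80.1), overlapped no H3K27ac peak.

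Mstn encodes myostatin, which limits muscle mass, and had no JunB peak within 50 kb. It had 2 H3K27ac peaks, and the stronger, with a fold of 4.48 at percentile 93.2 and a width of 1607 bp, began 625 bp downstream of the nearest TSS. Inhba, which encodes the subunit of activin A, had an H3K27ac peak across its TSS with a fold of 4.18. Its 2 JunB regions, 4812 and 25665 bp downstream, were aged peaks with folds of 3.11 and 4.67 at percentiles 0.644 and 35.6. Neither overlapped H3K27ac, and the farther one, chr13:16040140-16040466, was soft-masked as repeat over 100% of its length. The activin inhibitor Fst had a single H3K27ac peak, with a fold of 3.68, 49034 bp from a TSS.

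Of the BMP ligands, Bmp2 had a single H3K27ac peak, with a fold of 3.39, 29585 bp upstream, and no JunB region. Bmp4, a ligand of early mesoderm and of many stem cell niches, had 3 JunB regions. The closest, chr14:46387364-46387647, began 60 bp upstream of the TSS of a non-coding Bmp4 transcript, in an exon of the antisense gene Gm15222 and 2903 bp from the protein-coding TSS. It was an aged peak with a fold of 4.93 at percentile 45.7, and the nearest H3K27ac peak was 1065 bp away. A region 17595 bp upstream, chr14:46408264-46408800, had a fold of 5.81 in young replicate 1 and 5.01 in young replicate 2, at percentiles 55.5 and 2.35, and overlapped an H3K27ac peak of fold 2.84. It held an AP-1 heptamer 81 bp from the summit. A further region 22467 bp upstream was an aged peak of fold 6.23 at percentile 70.3 with no H3K27ac overlap. Young and aged JunB peaks near Bmp4 did not overlap at any of the 3 regions. Of all JunB regions within 50 kb of a protein-coding gene, 63.2% were seen in 1 library and 46.4% in the aged library alone. How often young and aged peaks near a gene share no region was not counted over all genes.

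Bmp6, a ligand known for its part in iron regulation, had 5 JunB regions, of which 1 was shared by all 4 libraries. That region, chr13:38410473-38410800, lay in a Bmp6 intron, 16028 bp beyond an inner protein-coding TSS, and no other gene had a closer TSS. Its fold was 8.82, 11.8 and 9.39 in the young libraries (10 ± 1.58, SD, n = 3) and 4.96 in the aged library. Its percentile was 79.2, 81.3 and 62.1 in young mice and 55.4 in the aged library, so the aged value was below each young value in fold. The region overlapped an H3K27ac peak of fold 2.89, and its AP-1 heptamer TGAGTCA was 120, 154 and 198 bp from the young summits and 134 bp from the aged one. It lay inside the 3 young peaks and past the end of the aged peak.

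The other Bmp6 regions were found in young replicate 1 and, in 1 case, also in the aged library. The latter, chr13:38338158-38338661, lay 6446 bp upstream with a fold of 8.34 in young replicate 1 (percentile 77.0) and 5.29 in the aged library (percentile 57.2), and overlapped an H3K27ac peak of fold 4.83. It was soft-masked over 100% of its length, and 87.1% of its bases equalled the base 6 bp further on. Of the 3 seen in young replicate 1 alone, that within 3 kb, chr13:38348504-38348770, had a fold of 4.56 and was 2351 bp from a non-coding and 3397 bp from a protein-coding TSS of Bmp6. The other two, just outside it at 3564 and 4366 bp from a TSS, had folds of 4.74 and 3.74, and the former held an AP-1 heptamer 27 bp from its summit. None of the 3 overlapped H3K27ac.

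**Figure D3:**
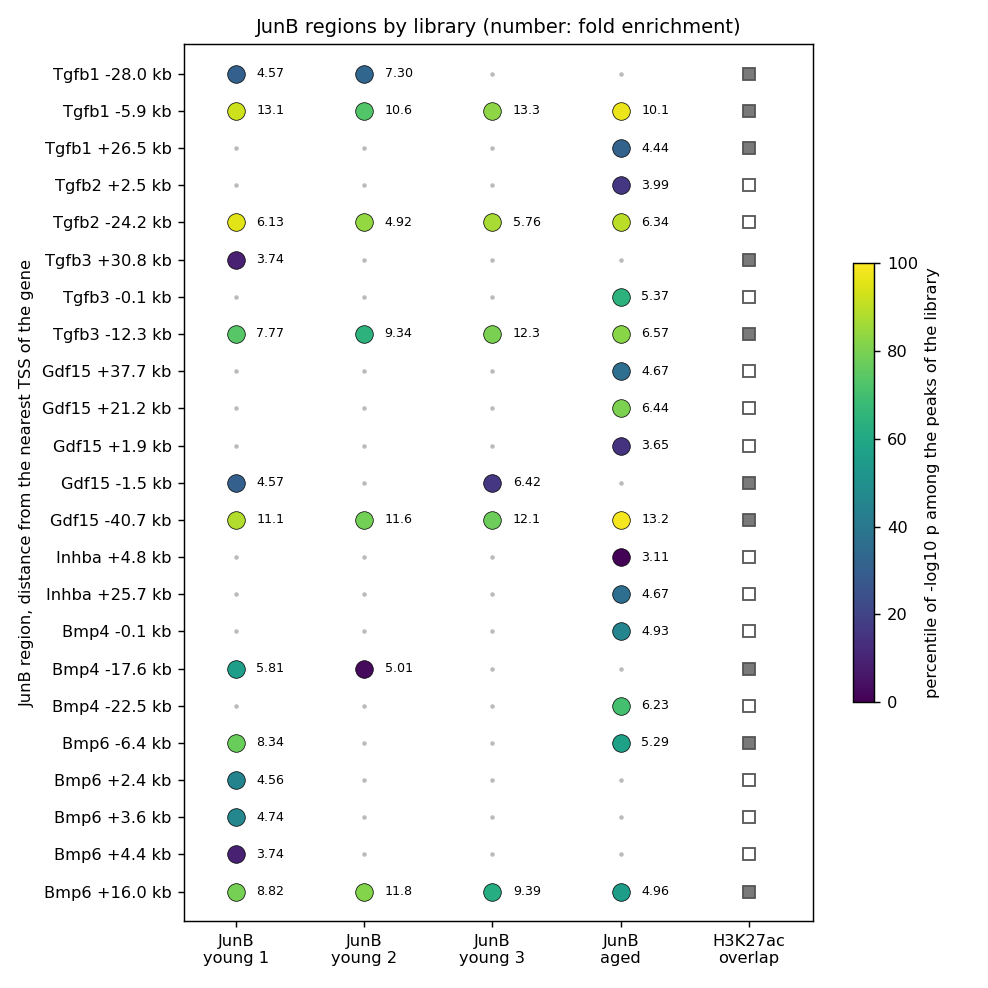
The 23 JunB regions (rows, by gene and distance in kb from its nearest TSS) in the 4 JunB libraries. Circles mark a peak, coloured by its percentile within the library with its fold enrichment beside it, dots mark no peak, and filled squares mark overlap with H3K27ac; 5 rows are filled in all 4 libraries and 10 in the aged library alone.

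Peaks of young replicates 1, 2 and 3 fell in 13, 7 and 6 of the 23 regions and those of the aged library in 16. All regions of young replicates 2 and 3 were also regions of young replicate 1. Peaks of all 4 libraries were held by 5 regions, 21.7% against 14.4% of the 13404 JunB regions within 50 kb of a protein-coding TSS, and none of the 5 was within 3 kb. Of the 6 regions within 3 kb, 5 were seen in a single library, 83.3% against 61.7% of JunB regions within 3 kb of any protein-coding gene. Over both classes 14 regions were seen in 1 library, 60.9% against 63.2%, and 10 in the aged library alone, 43.5% against 46.4%. These last shares for the ligand genes were near those of regions around all genes. Of the 10 aged-alone regions, 7 reached a −log10 p of 5.33, the highest of the lowest values of the 4 lists, and 1 was among the 3863 strongest aged peaks.

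Of the 5 regions in all 4 libraries, 2 lay within 3 kb of a protein-coding TSS of a neighbour (B9d2 and Lsm4), against 43.5% of the 1926 such regions around all protein-coding genes, and none lay within 3 kb of a ligand gene. The aged fold was below every young fold in 3 of 5 (Tgfb1, Tgfb3 and Bmp6), against 60.9% of the shared regions, and above every young fold in 2 of 5 (Tgfb2 and Gdf15), against 9.61%. The percentile depends on how many weak peaks a list holds, and the aged list holds the most. Fold is relative to its own library too. Its median was 4.93 in the aged list and 5.20, 7.74 and 8.11 in young replicates 1, 2 and 3. Neither measure gives a direction between ages. By percentile the aged peak was above every young peak in 3 of 5 (Tgfb1, Tgfb3 and Gdf15), against 56.2%, and below in 1 of 5 (Bmp6), against 11.2%. Fold and percentile differed in direction at Tgfb1 and Tgfb3. At Tgfb2 the aged fold was the highest, while the aged percentile lay among the young ones and the aged −log10 p was the lowest.

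**Figure D4:**
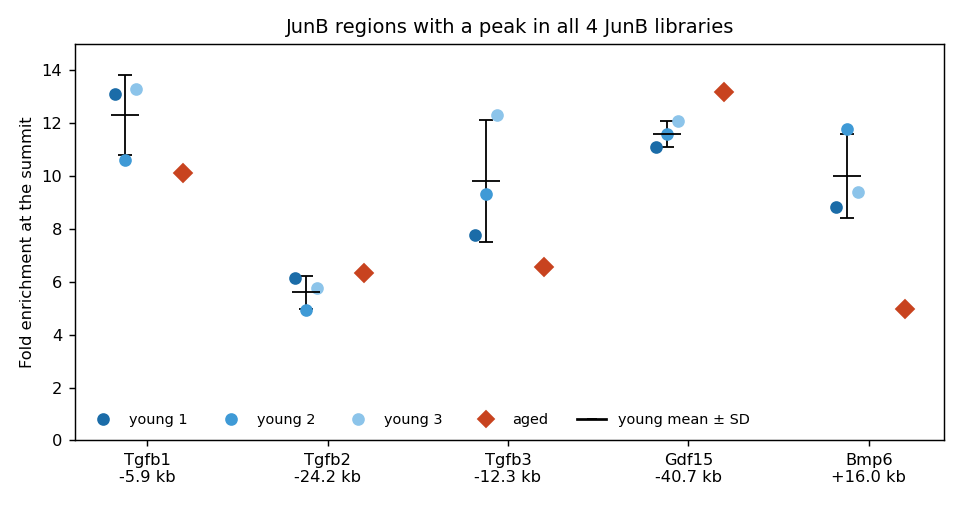
Fold enrichment (y axis) of the 5 regions with a peak in all 4 JunB libraries, with circles for the young libraries, black bars for their mean ± SD (n = 3) and diamonds for the aged library. The aged value is above the 3 young values at Tgfb2 and Gdf15 and below them at Tgfb1, Tgfb3 and Bmp6. Fold is relative to each library, and its median over all peaks was lower in the aged library than in each young one.

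H3K27ac peaks overlapped few of the JunB regions within 3 kb or seen in 1 library, and most of those seen in 2 or more. Of the 23 JunB regions 10 overlapped an H3K27ac peak, 43.5% (exact 95% binomial interval 23.2 to 65.5%, which covers counting error only), against 48.8% of regions near all protein-coding genes. Among the 6 regions within 3 kb 1 did, the upstream Gdf15 region, 16.7% against 65.7% of regions within 3 kb of any protein-coding gene. Among the 17 distal regions 9 did (52.9%). Of these 17, 6 lay within 3 kb of a protein-coding TSS of a neighbour, and 4 of the 6 overlapped H3K27ac. Of the other 11, 5 did, 45.5% against 36.4% of regions farther than 3 kb from every protein-coding gene. Regions in 2 or more libraries overlapped in 8 of 9 cases (88.9%, against 64.0%), those in all 4 in 4 of 5 (against 70.7%), the Tgfb2 repeat being the exception, and those in 1 library in 2 of 14 (14.3%, against 39.9%). The aged-alone regions overlapped in 1 of 10 cases, the Ccdc97 start site near Tgfb1, against 43.5% of aged-alone regions near all genes. At the same genes H3K27ac had 45 peaks, from 1 each at Inhba, Fst and Bmp2 to 9 at Bmp6 and 10 at Tgfb2, and 10 of the 45 held a JunB region, where 22.0% of H3K27ac peaks near all protein-coding genes held a JunB peak. Of the 10 H3K27ac peaks within 3 kb of a TSS 1 did, against 27.8%, and the other nine, at Tgfb1, Tgfb2, Tgfb3, Mstn, Inhba, Bmp4 and Bmp6, held none. No age is given for the H3K27ac sample, and the methods also tie it to an external epigenome project, so the overlaps may set JunB peaks beside chromatin of mice of another age or source.

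Of the 17 distal regions 6 lay within 3 kb of the TSS of another protein-coding gene, and for 9 the nearest protein-coding TSS was that of the ligand gene. The peak lists hold no link between a region and the gene it acts on, so a region near a ligand gene is a position alone.

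An exact AP-1 heptamer (TGACTCA or TGAGTCA) lay within 50 bp of the summit in 3 of 23 regions, at Tgfb3, Gdf15 and Bmp6, against 3.87% of 18879 JunB regions on the assembled chromosomes, and each of the 3 was seen in a single library. Anywhere in the region it was found in 6 of 23, against 25.2%. In the same windows TGACGTCA, the cyclic AMP response element, was found in 0 of 23 (0.233% of all regions), CCAAT or ATTGG in 3 (13.1%), CACGTG in 0 (1.72%) and GGGCGG or CCGCCC in 1 (6.76%). A match is a description of letters and does not show binding. Soft-masked repeat covered over 50% of 4 of the 23 regions, the Tgfb2 repeat, the farther Inhba region, and the upstream and closest Bmp6 regions, against 19.9% of all JunB regions.

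Other genes of the pathway, taken from lists of their roles, were read in the same way within 3 kb of a TSS. Of all protein-coding genes, 11.0, 7.74 and 5.91% had a JunB peak there in young replicates 1, 2 and 3. The share was 23.9% for the aged library and 49.8% for H3K27ac. A JunB peak of any library lay at 25.8%, peaks of all 4 at 4.36%, and an aged with no young peak at 13.1%. The lists are short, and no count was tested against these shares. None of 12 other ligand genes (among them Gdf11, Inhbb and Bmp7) had a JunB peak of any library within 3 kb, and 4 had an H3K27ac peak. Within 50 kb, 4 of the 12 had no JunB peak, against 35.5% of all genes, and Gdf11, Inha and Amh had peaks of all 4 JunB libraries. Of 14 receptor genes 12 had an H3K27ac peak, and JunB peaks lay at 2, 1 and 1 of them in young replicates 1, 2 and 3 and at 3 in the aged library. Tgfbr2, the type II TGF-beta receptor, was the receptor gene with peaks in all 4 JunB libraries, with folds of 7.89, 9.20 and 9.06 in young mice and 7.47 in the aged one, across its TSS and an H3K27ac peak. Tgfbr1, the type I receptor, had an aged peak alone (fold 4.33, percentile 29.1).

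Among 13 SMADs and their nuclear or ubiquitin-ligase inhibitors JunB peaks lay at 3, 3 and 2 in young mice and at 4 in the aged library, and H3K27ac peaks at 10. Smad3, which carries TGF-beta and activin signals, and Tgif1, a corepressor of SMADs, had peaks in all 4. The strongest Smad3 folds were 9.35, 7.01 and 7.85 in young mice and 8.11 in the aged one, and those of Tgif1 were 5.22, 7.49 and 5.61 against 4.21, where the peak of young replicate 3 did not overlap the other young peaks. The inhibitory SMAD genes Smad6 (fold 5.51, percentile 61.9) and Smad7 (fold 3.68, percentile 12.3) had aged peaks alone, and Skil, another SMAD corepressor, had peaks in young replicates 1 and 2 (folds 4.91 and 6.20) and not in the aged library. These patterns hold within 3 kb alone: within 50 kb Smad6 and Smad7 had peaks of all 4 JunB libraries and Skil had an aged peak.

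Of 14 extracellular binders 4, 2 and 3 had a JunB peak in the young libraries, 3 in the aged library and 8 an H3K27ac peak. Ltbp1, which tethers latent TGF-beta to the matrix, and Thbs1, which activates it, had peaks in all 4 JunB libraries, with strongest folds of 10.9, 7.52, 7.50 and 8.37 at Ltbp1 and of 6.15, 6.50, 6.68 and 6.22 at Thbs1, in the order young 1, 2, 3 and aged. The strongest aged Ltbp1 peak was at another start site than the young ones, where the aged fold was 5.74. Of 9 target genes 4, 1 and 1 had a JunB peak in the young libraries, 5 in the aged library and 7 an H3K27ac peak. Pmepa1, a feedback inhibitor of SMAD signalling, had peaks in all 4, and its second site, with folds of 8.09, 9.57 and 9.55 in the young libraries, had no aged peak. Id2 (fold 4.12, percentile 33.6) and Hey1 (fold 4.67, percentile 35.6), both known BMP targets, had aged peaks alone within 3 kb. Within 50 kb Id2 also had a peak of young replicate 1.

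**Figure D5:**
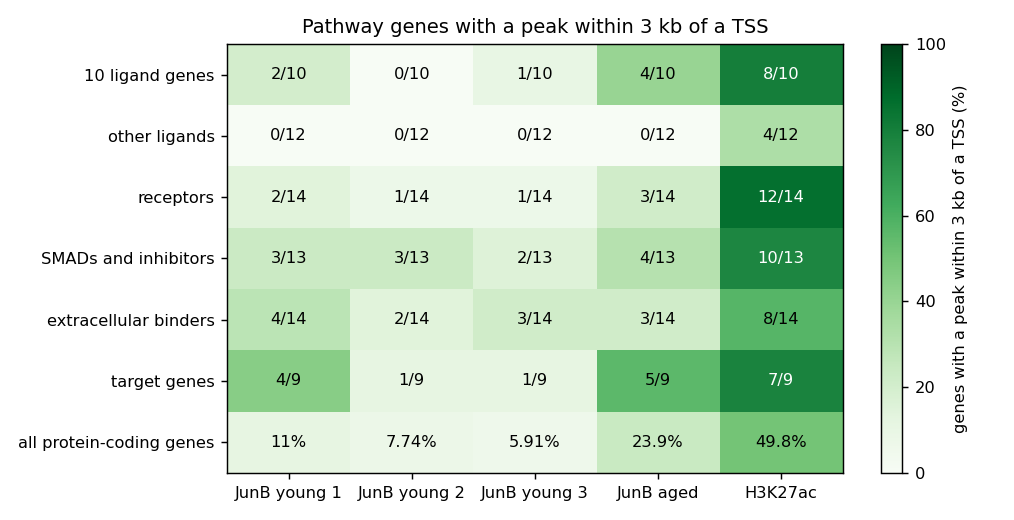
Genes of each list (rows) with a peak within 3 kb of a TSS in each library (columns), as count over list size and shaded by percent, with all protein-coding genes in the bottom row. Counts in the JunB columns run from 0 to 5 genes a list, and in the H3K27ac column from 4 of 12 other ligands to 12 of 14 receptors.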

How the data were processed

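Peak lists of 4 JunB and 1 H3K27ac CUT&RUN-seq libraries of mouse MuSCs were used. The methods sort MuSCs of young and aged mice by surface markers, without CD45, CD31 and SCA1 and with VCAM, but the list of young replicate 1 carries a gfp tag. The authors aligned quality-filtered reads to mm10 (Bowtie2), removed redundant reads and ran MACS2 for each list. Versions and a control library are not given in the sources used here. The deposited lists hold for each peak a fold enrichment (a ratio to local background), a −log10 p, a −log10 q and a score, which was not used. Each is relative to its own library and served for description and ranking only.

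JunB peaks that overlapped or touched were merged into regions. Distance was taken from the region to the nearest TSS of any transcript (GENCODE M21), and overlap was at least 1 bp. A region counted for a library when it held a peak of it, and the strongest peak was used. Background shares used the same rules on all protein-coding genes. Motifs were sought as exact letters on both strands within 50 bp of the summit of the peak of highest rank in its library. No test was made. Scripts ran under Python 3.11.15 (numpy 2.4.6, scipy 1.17.1, matplotlib 3.10.9). Merging, overlap and distance were tested on simulated data and equalled bedtools 2.31.1 for 2554 of 2554 merged intervals, 3000 of 3000 overlaps and 3000 of 3000 distances.

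The members and lists were chosen with earlier results of these data known. Named were all regions within 3 kb, all in 2 or more libraries and the strongest single-library distal region of each gene, and, of the other lists, genes with peaks in all 4 JunB libraries, in the aged library alone, or in 2 or more young libraries and not the aged one. The other single-library regions, the repeat measures and the Bmp6 sequence that reaches its AP-1 heptamer were picked after their values were seen. The young labels say biological replicates and the number of mice per library is not given in the sources used here.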

Additional observations from a re-analysis of the deposited data

How the results depend on the processing

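Each count was recomputed under up to 15 alternatives, with main values of 23 regions, 6 of them within 3 kb, 4 aged and 1.0 young mean genes within 3 kb, 5 regions in all libraries, 43.5% overlap, 45 H3K27ac peaks, 10 aged-alone and 7 young-alone regions. No share of young-alone regions around all protein-coding genes is given, so the count of 7 has no background to be read against. A 1 kb promoter window left 2 regions, 2 aged genes and a young mean of 0. A 20 kb outer window gave 14 regions, 3 in all libraries, 26 H3K27ac peaks and 5 aged-alone regions, and a 100 kb window gave 40, 9, 70 and 18. Peaks at a common −log10 p of 5.33 left 2 aged genes within 3 kb. The 3863 strongest peaks of each JunB library left 9 regions, 1 within 3 kb, 0 aged genes, 77.8% overlap, 1 aged-alone and 4 young-alone regions, so the aged genes within 3 kb rest on weaker aged peaks. A −log10 q of 10 for H3K27ac left 19 peaks, and linking each region to its nearest protein-coding TSS left 15 regions, 1 of them in all libraries. Leaving out a young library gave 3 to 7 young-alone regions, 3 without replicate 1, and young means of 0.50 to 1.5. The young mean was 0.67 with protein-coding TSSs alone and 0.33 with the strongest peaks, within 1 SD of the main value. In all, 22 values moved and 70 did not, where counts within 1.5 times the main one, means within 1 SD and shares within the 95% interval count as not moved. These limits are wide for the young mean (SD 1.0) and the overlap share (23.2 to 65.5%). Only large changes of these values could count as moved, so the 70 are no measure of stability there. No paired analysis was possible because there is 1 aged library and the labels give no pairing of young with aged mice. The lists carry no read counts, so depth limits every absence of a peak to an unknown extent.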
